A study of Homo sapiens with 36 samples.

Results

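The HOX gene clusters are 4 runs of homeobox genes, HOXA, HOXB, HOXC and HOXD, that give cells their position along the body axis. Within each run the genes lie in the order in which they are used, so that HOXB1, a hindbrain gene, and HOXD1 stand at one end and HOXA13, HOXB13, HOXC13 and HOXD13, which act in limbs, tail, genital tract, hair or prostate, stand at the other. HOXA9, known from blood stem cells and leukaemia, lies among the posterior genes of HOXA, and HOXC4 is the most anterior gene of HOXC. CTCF, a zinc-finger protein that holds the anchors of chromatin loops, is known to bind between HOX genes, where its sites separate active genes from genes silenced by Polycomb proteins. NuRD, a complex that moves nucleosomes and removes acetyl groups from histones, contains a CHD helicase and an MBD2 or MBD3 subunit.

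CTCF was mapped by chromatin immunoprecipitation and sequencing in HEK293T cells, an established line from human embryonic kidney. A single NuRD subunit was targeted by small interfering RNA in each of 5 conditions, named siCHD3, siCHD4, siCHD5, siMBD2 and siMBD3 after the gene, and siNC was the control. No other treatment was named. The 36 samples formed 12 groups, 3 CTCF immunoprecipitates and 3 inputs per condition. The deposited lists held 1 set of peaks per condition, called on the 3 replicates together. No value below therefore has a spread between replicates, and no test between conditions was made.

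The members were all peaks overlapping chromosome 7 from 27050000 to 27350000 (HOXA), chromosome 17 from 46550000 to 46850000 (HOXB), chromosome 12 from 54280000 to 54500000 (HOXC) or chromosome 2 from 176900000 to 177100000 (HOXD), in hg19. There were 33 such peaks of 34319 with siCHD3, 20 of 25358 with siCHD4, 19 of 31451 with siCHD5, 16 of 26087 with siMBD2, 24 of 25848 with siMBD3 and 30 of 36270 with siNC. Overlapping or touching peaks of the 6 lists joined into 50 regions, of 54382 in the genome: 12 in HOXA, 16 in HOXB, 10 in HOXC and 12 in HOXD. Each region is numbered along its window in the order of its start, and these numbers are not gene numbers. The 39 genes of the clusters, 11 in HOXA, 10 in HOXB, 9 in HOXC and 9 in HOXD, were not placed beside the peaks, because gene positions of hg19 were not used here. Knockdown of the targeted subunits and expression of the HOX genes were not analysed here.

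CTCF recognises a long motif with a CC and AGG core, so the HOX promoters were searched for CCNNNAGGNGGC on both strands. The sequences came from RefSeq (GRCh38.p14) and ran from 250 bases before to 50 bases after each gene's start. The table held 27 promoters of 20 of the 39 HOX genes. The motif was found in 2 of these, HOXD10 and HOXA11, both genes of the posterior part of their clusters, and in 1631 of all 35116 promoters (4.64%). Both matches read in the direction of the gene, and the capitals mark them below.
HOXD10: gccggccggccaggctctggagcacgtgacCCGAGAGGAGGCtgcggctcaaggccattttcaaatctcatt
HOXA11: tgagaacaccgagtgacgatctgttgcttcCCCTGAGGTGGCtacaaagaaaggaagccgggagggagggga
The match ended 86 bases before the start in HOXD10, on chromosome 2, and 175 bases before it in HOXA11, on chromosome 7. A match describes letters, not binding, and with builds that differ neither was set beside a peak. The absence of these letters from the other promoters says nothing of CTCF there.

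The lists were not equally deep. The lowest local background that the fold and p of the peaks imply, a stand-in for depth, was 0.445 fragments with siCHD3, 1.06 with siCHD4, 1.95 with siCHD5, 0.640 with siMBD2, 0.374 with siMBD3 and 2.96 with siNC. Fold enrichment is the authors' ratio of the summit pileup to the local background, each with 1 added. It ranks peaks within a list, and folds of different lists are set side by side without a test. The median fold of the HOX peaks and that of all peaks were 6.22 and 6.23 with siCHD3, 5.81 and 5.04 with siCHD4, 5.46 and 6.54 with siCHD5, 7.25 and 6.62 with siMBD2, 6.06 and 6.71 with siMBD3, and 4.59 and 5.22 with siNC. HOX peaks thus had the lower median in siCHD5, siMBD3 and siNC, the higher one in siCHD4 and siMBD2, and nearly the same one in siCHD3.

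Peaks filled only part of each window. In HOXA all 12 regions lay within 81.5 kb, after a stretch of 119 kb without a peak of any list and before another of 99.7 kb. The HOXB regions spanned 178 kb, the HOXC regions 119 kb and the HOXD regions 122 kb. The longest peak-free stretches there were 93.9 kb at the far end of the HOXB window, 98.7 kb at the near end of the HOXC window and 50.3 kb between regions 11 and 12 of HOXD. A siNC peak in the clusters had a median of 8 other siNC peaks within 100 kb, against 3 over all siNC peaks. The medians differed by cluster, with 8 in HOXA, 10 in HOXB, 2 in HOXC and 4 in HOXD.

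**Figure D1:**
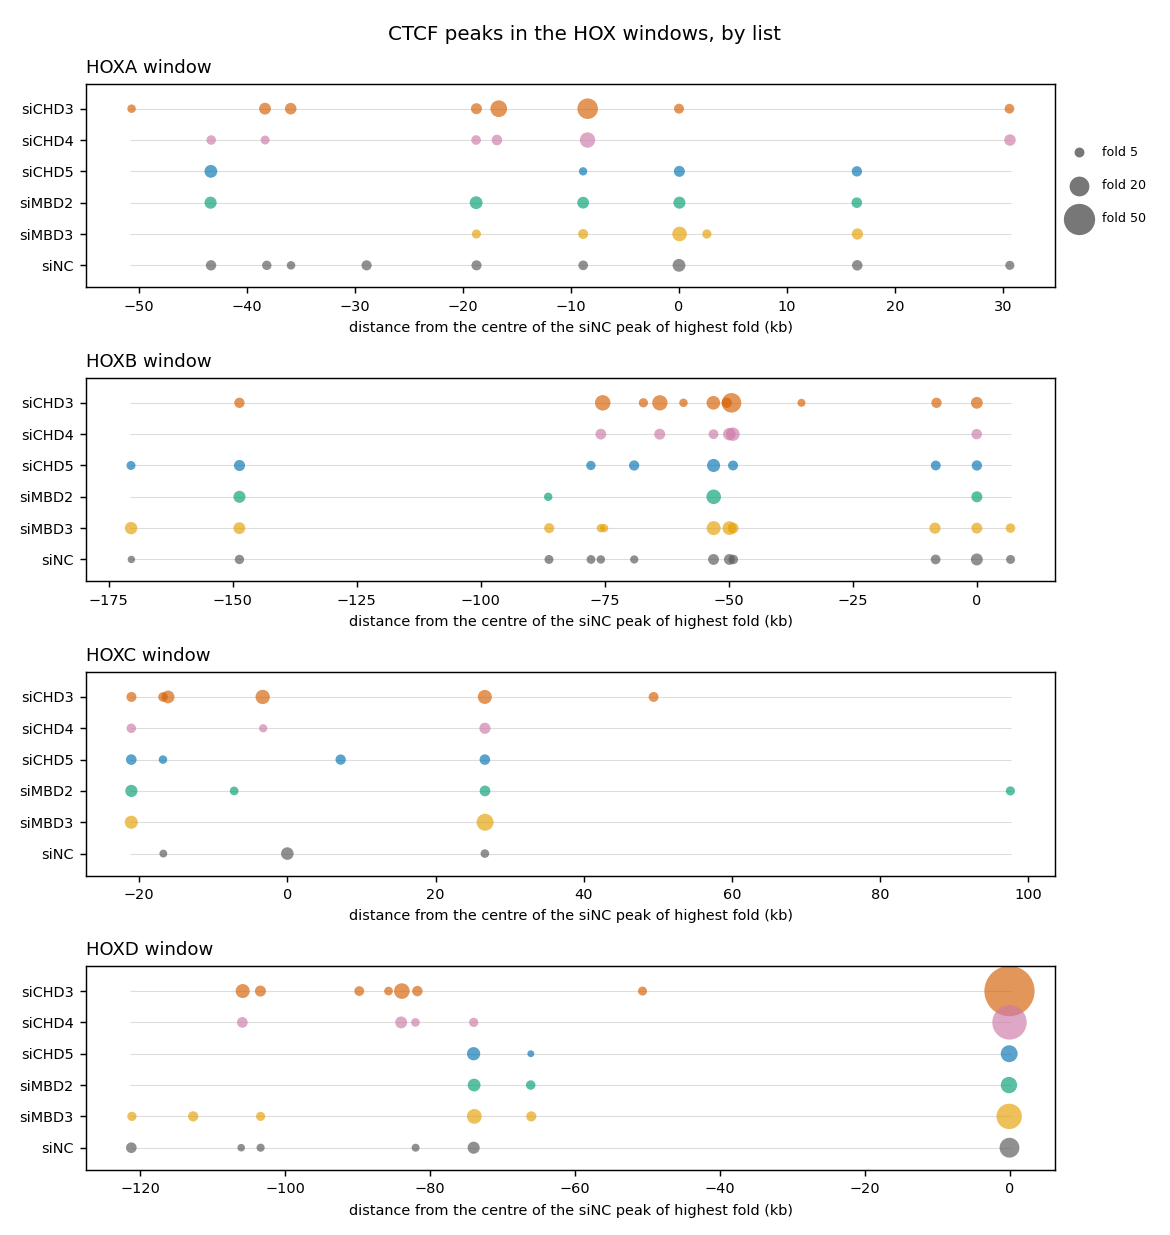
CTCF peaks in the 4 HOX windows, with 1 row per peak list (siCHD3, siCHD4, siCHD5, siMBD2, siMBD3, siNC) and distance in kb from the strongest siNC peak of the window on the x axis; the area of a point grows with fold enrichment. The largest points are those of HOXD region 12 with siCHD3 (fold 129) and siCHD4 (fold 60.6), while most other points are small and many lack a partner in another row.

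Calling varied from list to list, and peaks are ranked as strongest by their fold. Of the 50 HOX regions, 5 were called in all 6 lists (10.0%, exact 95% interval 3.33 to 21.8), against 21.7% of all regions, which lies just inside the interval. They were HOXA region 8, HOXB regions 10 and 15, HOXC region 8 and HOXD region 12. A further 17 regions (34.0%) were called in 1 list, against 31.6% of all regions, and 28 in 2 to 5 lists. A siNC peak was present in 29 regions, and 21 were called in knockdown lists alone (42.0%, interval 28.2 to 56.8), against 33.9% of all regions. Intervals here cover counting error only, and neighbouring peaks of 1 cluster come from the same pooled libraries.

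HOXD region 12, on chromosome 2 from 177065670 to 177066112, held the HOX peak of highest fold in every list. Its fold was 129 with siCHD3, 60.6 with siCHD4, 14.6 with siCHD5, 13.7 with siMBD2, 33.0 with siMBD3 and 20.1 with siNC. By fold it ranked 9 with siCHD3, 5 with siCHD4, 476 with siCHD5, 191 with siMBD2, 17 with siMBD3 and 12 with siNC. The region was thus among the top peaks of the siCHD3, siCHD4, siMBD3 and siNC lists and lower, though in the strongest 2%, in siCHD5 and siMBD2. The summit pileup was 397 fragments with siCHD3, 306 with siCHD4, 95 with siCHD5, 114 with siMBD2, 94 with siMBD3 and 348 with siNC. In the siCHD5 list the pileup was higher in HOXD region 9, with 120 fragments, and in HOXB region 15, with 99. Divided by the lowest background of its list, the pileup was 893 with siCHD3, 289 with siCHD4, 48.6 with siCHD5, 178 with siMBD2, 251 with siMBD3 and 118 with siNC. The same quotient had a median over all peaks of 33.7 with siCHD3, 24.5 with siCHD4, 23.5 with siCHD5, 32.8 with siMBD2, 42.8 with siMBD3 and 19.9 with siNC. On this scale the region stood above siNC in siCHD3, siCHD4, siMBD2 and siMBD3 and below it in siCHD5, without replicates to give the spread. The median over all peaks was above that of siNC in each knockdown list, and highest in siMBD3. A value above siNC is thus not by itself particular to this region.

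The left edge of HOXD region 12 was nearly the same in all lists. Its peaks started at 177065670 with siCHD3, at 177065673 with siCHD4 and siNC and at 177065674 with siCHD5, siMBD2 and siMBD3, a spread of 4 bp. Of 11543 regions with exactly 1 peak in each list, 34 had starts within 5 bp (0.295%), and the median spread of starts was 98 bp. The start edge and the 5 bp limit were chosen with these data at hand, so this share only describes. The right edge varied by 148 bp, between 177065964 with siMBD2 and 177066112 with siCHD4. That was more than the median spread of ends over the same 11543 regions, 97.0 bp. Summits lay within 21 bp of each other.

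**Figure D2:**
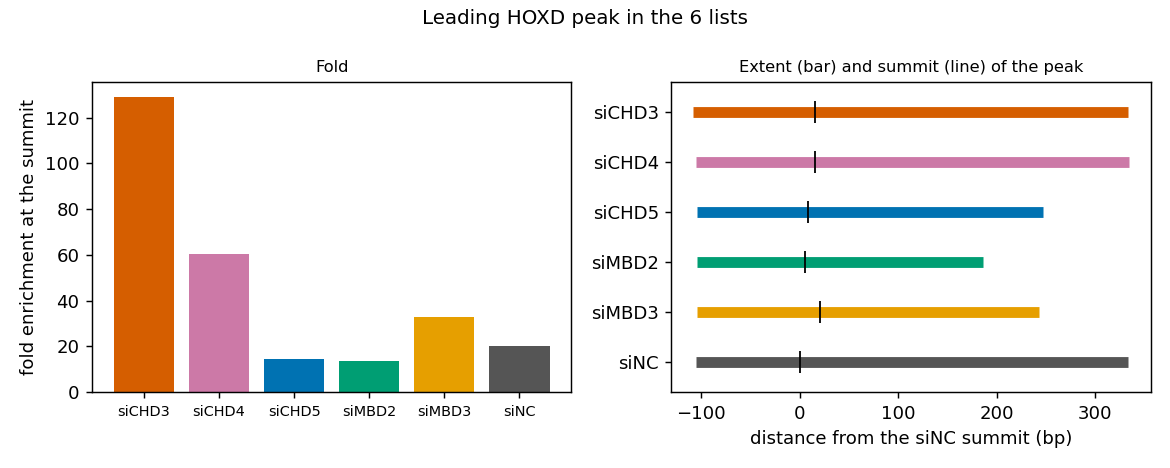
Fold enrichment at the summit (left, bars from 0) and extent with summit (right, distance in bp from the siNC summit) of the HOXD region 12 peak in the 6 lists. The bars run between 13.7 with siMBD2 and 129 with siCHD3, and the left ends of the 6 extents lie within 4 bp.

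In the rest of HOXD, region 9 (176991753 to 176992186) was called in all lists but siCHD3. Its fold was 4.38 with siCHD4, 9.00 with siCHD5, 8.35 with siMBD2, 11.2 with siMBD3 and 7.51 with siNC. The siNC peak of region 9 had 156 fragments at the summit, the most of any siNC peak in the clusters that siCHD3 lacked. HOXD region 1 (176944562 to 176944854) had a fold of 4.37 with siMBD3 and 5.81 with siNC and no peak elsewhere. HOXD region 7 (176981568 to 176982298) was called in siCHD3 (fold 12.5) and siCHD4 (fold 7.28) alone. It was the strongest added peak of siCHD4 in the clusters. HOXD region 10 (176999683 to 177000046) had folds of 2.46 with siCHD5, 4.61 with siMBD2 and 5.28 with siMBD3 and no siNC peak. The other 7 HOXD regions were 2, 3, 4, 5, 6, 8 and 11, with knockdown folds between 3.85 and 10.1.

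HOXA region 8 (chromosome 7 from 27210513 to 27211609) was the HOXA region called in all 6 lists. Its fold was 21.6 with siCHD3, 12.1 with siCHD4, 3.55 with siCHD5, 7.08 with siMBD2, 5.12 with siMBD3 and 4.79 with siNC. The peak was 1097 bp wide with siCHD3 and 1031 bp with siCHD4, each with 3 summits, between 200 and 218 bp with siCHD5, siMBD2 and siMBD3, and 227 bp with siNC. The strongest siNC peak of the cluster was HOXA region 9 (27219364 to 27219703), with folds of 5.08 with siCHD3, 6.19 with siCHD5, 7.43 with siMBD2, 10.9 with siMBD3 and 8.40 with siNC. It had no siCHD4 peak and was the strongest HOX siNC peak missing there. HOXA region 2 (27175978 to 27176385) had folds of 4.64 with siCHD4, 8.37 with siCHD5, 7.50 with siMBD2 and 5.51 with siNC.

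HOXA region 11 (27235832 to 27236199) was called in siCHD5, siMBD2, siMBD3 and siNC with folds of 5.47, 5.76, 6.50 and 5.64 in that order, and in neither siCHD3 nor siCHD4. The reverse held for HOXA region 7 (27202271 to 27203392), which was called in siCHD3 (fold 14.3) and siCHD4 (fold 5.75) alone. It was the strongest added HOX peak of siCHD3, 1122 bp wide there with 3 summits. HOXA region 5 (27190493 to 27190698) had a siNC peak of fold 5.30 and 20 fragments and no peak in a knockdown list. The other 6 HOXA regions, 1, 3, 4, 6, 10 and 12, had knockdown folds between 3.71 and 8.39.

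HOXB held 2 regions called in all 6 lists. Region 10 (chromosome 17 from 46695900 to 46696276) had folds of 9.54 with siCHD3, 4.91 with siCHD4, 8.80 with siCHD5, 10.9 with siMBD2, 10.1 with siMBD3 and 6.09 with siNC. Region 15 (46748997 to 46749377) was the strongest siNC peak of the cluster, with folds of 7.19 with siCHD3, 5.59 with siCHD4, 5.43 with siCHD5, 6.23 with siMBD2, 6.07 with siMBD3 and 7.29 with siNC. These folds varied less between lists than those of HOXD region 12. Region 12 (46699135 to 46700297) was called in all lists but siMBD2. It was 1 peak of 1095 bp with siCHD3 (fold 19.6), and separate left and right peaks in siCHD4 (7.98 and 9.29), siMBD3 (9.65 and 6.05) and siNC (6.0 and 4.65). In siCHD5 the right peak alone was called, with a fold of 5.09.

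HOXB region 8 (46685109 to 46685463) was called in siCHD3 (fold 12.0) and siCHD4 (fold 6.15) alone, with the same start in both. The other 12 HOXB regions had knockdown folds between 3.28 and 12.3. The upper end of that range was region 5 (46673287 to 46674258), picked out after its values were seen, where the siCHD3 peak was 954 bp wide with a fold of 12.3, against 3.66 with siNC.

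HOXC had the fewest siNC peaks, 3, in 10 regions. Region 8 (chromosome 12 from 54426346 to 54426682) was called in every list. Its fold was 10.1 with siCHD3, 6.38 with siCHD4, 5.71 with siCHD5, 5.90 with siMBD2, 14.7 with siMBD3 and 3.81 with siNC. The siNC fold was the lowest of the 6, over the highest local background of any HOX siNC peak (28.4 fragments). The siNC pileup at this summit was 111 fragments. HOXC region 6 (54399686 to 54400005) was the strongest siNC peak of the window (fold 8.10, 56 fragments) and had no peak in a knockdown list. It was the strongest HOX siNC peak missing in siCHD3, siCHD5, siMBD2 and siMBD3.

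HOXC region 1 (54378678 to 54378931) was called in each of the 5 knockdown lists but lacked a siNC peak. Its fold was 5.14 with siCHD3, 4.61 with siCHD4, 5.79 with siCHD5, 7.61 with siMBD2 and 8.76 with siMBD3. It was the strongest added HOX peak of siCHD5, siMBD2 and siMBD3. Such regions were rare: 46 of 54382 in the genome (0.0846%), and 1 of 50 here (2.00%, interval 0.0506 to 10.6). Summit pileups ran between 13 fragments with siCHD3 and 48 with siCHD5. HOXC region 2 (54382931 to 54383221) had folds of 4.68 with siCHD3, 3.70 with siCHD5 and 3.19 with siNC. HOXC region 5 (54396359 to 54396681) was called in siCHD3 (fold 10.5) and siCHD4 (fold 3.46) alone. The remaining 5 HOXC regions, 3, 4, 7, 9 and 10, were each called in 1 knockdown list, with folds between 3.91 and 8.41.

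**Figure D3:**
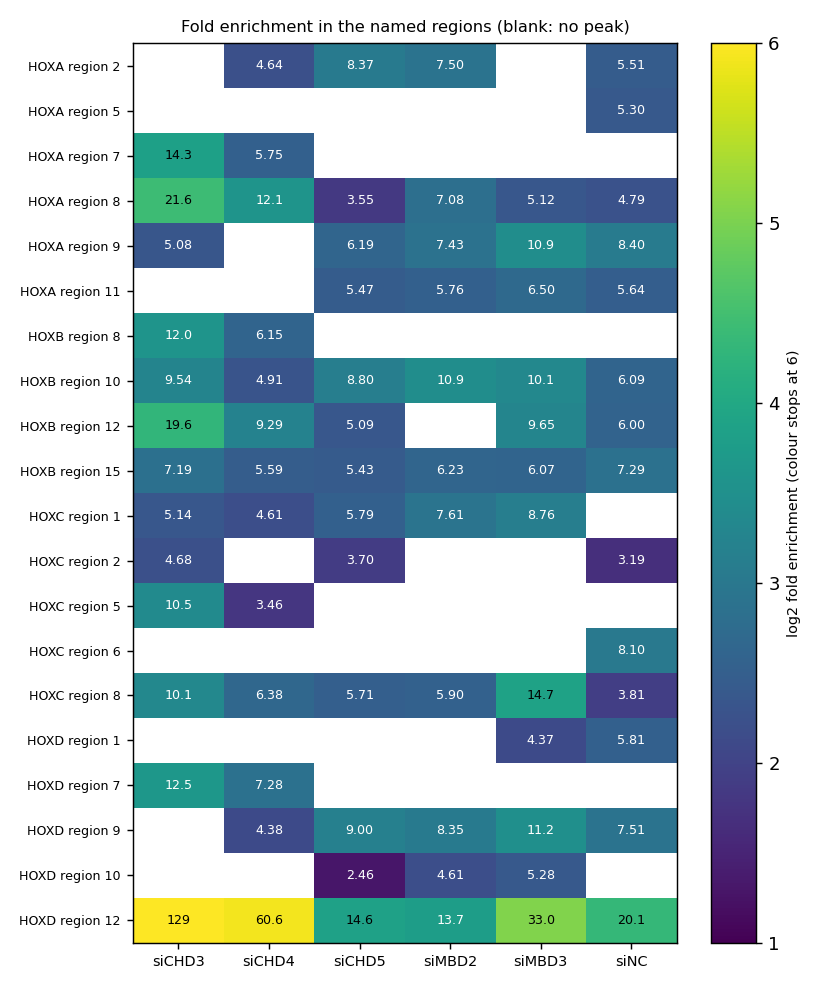
Fold enrichment of the 20 named HOX regions (rows) in the 6 peak lists (columns), on a log2 colour scale that stops at 6 with the linear fold written in each cell; a blank cell has no peak, and of several peaks the highest fold is shown. HOXD region 12 is the brightest row, HOXA region 7, HOXB region 8, HOXC region 5 and HOXD region 7 are filled in siCHD3 and siCHD4 alone, and HOXC region 1 is blank in siNC alone.

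A siNC peak is called missing in a knockdown list where that list has no peak overlapping it. Of the 30 siNC peaks in the clusters, 11 were missing in siCHD3 (36.7%, interval 19.9 to 56.1), against 35.4% of all siNC peaks. In siCHD4 15 were missing (50.0%, 31.3 to 68.7), against 41.5% of all. In siCHD5 14 were missing (46.7%, 28.3 to 65.7), against 21.5% of all. In siMBD2 18 were missing (60%, 40.6 to 77.3), against 34.9% of all, and in siMBD3 11 (36.7%, 19.9 to 56.1), against 38.5% of all. The share of all siNC peaks lay below the HOX interval in siCHD5 and siMBD2 and inside it in the other 3 lists. By cluster, siMBD2 lacked 4 of 9 siNC peaks in HOXA, 8 of 12 in HOXB, 2 of 3 in HOXC and 4 of 6 in HOXD. siCHD5 lacked 5 of 9, 4 of 12, 1 of 3 and 4 of 6 in the same order. Counts depended on the setting. In lists cut to equal length 5 of 13 siNC peaks were missing in siCHD5 (38.5%, interval 13.9 to 68.4), against 13.2% of all. In siMBD2 3 of 13 were missing at that length (23.1%, 5.04 to 53.8), against 19.2% of all, which lies inside the interval. Another setting kept only peaks with a −log10 q of 10 or more on both sides. Of 19 siNC peaks, 11 were then missing in siCHD5 (57.9%, 33.5 to 79.7), against 18.2% of all. In siMBD2 9 of 19 were missing (47.4%, 24.4 to 71.1), against 50.7% of all. This limit can remove a partner by construction, as in HOXA region 8, whose siCHD5 peak had a −log10 q of 5.50. With the limit on the siNC list alone, 6 of 19 were missing in siCHD5 and 9 of 19 in siMBD2. No share over all peaks is given for that setting. With a reciprocal overlap of 50%, 20 of 30 were missing in siCHD3 (66.7%, 47.2 to 82.7), against 40.8% of all, which lies below the interval. A siNC peak shorter than 50% of its siCHD3 partner fails this rule by length, even where it lies inside that partner. The rise from 11 includes the siNC peaks overlapped by 7 siCHD3 peaks of 500 bp or longer, which fail in this way.

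Peaks of low pileup can go uncalled in a shallower list. Each siNC summit was thinned to the depth of a knockdown list, which gives the chance that it would still pass that list's smallest −log10 p. Of the 25 HOX siNC peaks with a chance of at least 95% in siCHD5, 10 were missing (40%, interval 21.1 to 61.3), against 15.2% of all siNC peaks of that kind. For siMBD2 there were 9 such HOX peaks, and 1 was missing (11.1%, 0.281 to 48.2), against 7.72% of all. The other 17 peaks missing in siMBD2 were under that chance. In siCHD3 2 of 6 were missing (33.3%, 4.33 to 77.7; 8.88% of all), in siCHD4 3 of 13 (23.1%, 5.04 to 53.8; 28.6% of all) and in siMBD3 0 of 4 (upper bound 60.2%; 4.67% of all). The model leaves out peak length and variation between libraries. It also takes the siNC ratio of pileup to lowest background as holding in every list. The median of that ratio over all peaks was 19.9 in siNC and between 23.5 and 42.8 in the knockdown lists. The part of depth in the missing peaks was thus not tested.

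Few HOX siNC peaks were called in every knockdown list. Of the 30, 5 had a partner in all 5 knockdown lists (16.7%, interval 5.64 to 34.7), against 32.6% of all siNC peaks, which lies inside the interval. Another 2 were missing in all 5, HOXA region 5 and HOXC region 6. As regions called in siNC and no other list, these were 2 of 50 (4.0%, interval 0.488 to 13.7), against 5.30% of all regions. At the siCHD5 depth the chance of a call was 98.5% for HOXA region 5 and, rounded, 100.0% for HOXC region 6. At the siMBD3 depth it was 24.1% and 85.2%. The median distance between the summits of a kept HOX siNC peak and its partner was between 8.50 bp with siCHD5 and 17.0 bp with siMBD3. The largest distance ran between 49 bp with siCHD5 and 716 bp with siCHD3, where 15 of 19 pairs lay within 100 bp.

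A knockdown peak with no overlapping siNC peak is called added. In siCHD3, 15 of 33 HOX peaks were added (45.5%, interval 28.1 to 63.6), against 32.6% of all its peaks. In siCHD4 there were 5 of 20 (25%, 8.66 to 49.1), against 16.8%, and in siCHD5 3 of 19 (15.8%, 3.38 to 39.6), against 9.41%. In siMBD2 there were 4 of 16 (25%, 7.27 to 52.4), against 9.30%, and in siMBD3 5 of 24 (20.8%, 7.13 to 42.2), against 13.4%. In the lists as deposited, all 5 HOX shares were above that of the whole list, and all 5 intervals contained it. In lists of equal length, by contrast, the whole-list share lay below the interval in siCHD3, with 15 of 23 added (65.2%, 42.7 to 83.6) against 30.5%, and in siMBD3, with 12 of 23 (52.2%, 30.6 to 73.2) against 23.9%. In siCHD4 it lay inside, with 10 of 20 added (50.0%, 27.2 to 72.8) against 30.5%. That cut kept 13 of the 30 HOX siNC peaks but 25358 of all 36270. A knockdown peak whose siNC partner was cut counts as added by construction. The siCHD4 list itself lost no peak, so its rise from 5 is of this kind. A limit on q in both lists can act likewise. Where only peaks with a −log10 q of 10 or more were kept on both sides, 6 of 13 were added in siCHD3 (46.2%, 19.2 to 74.9), against 18.3%, which lies below the interval. A reciprocal overlap of 50% gave 23 of 33 in siCHD3 (69.7%, 51.3 to 84.4), against 37.4%, which also lies below it. That rise from 15 includes 7 siCHD3 peaks of 500 bp or longer that overlap a siNC peak and fail the rule by length. Under these 3 settings the interval contained the whole-list share in every other list. The 5 comparisons share the siNC list and are not independent.

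**Figure D4:**
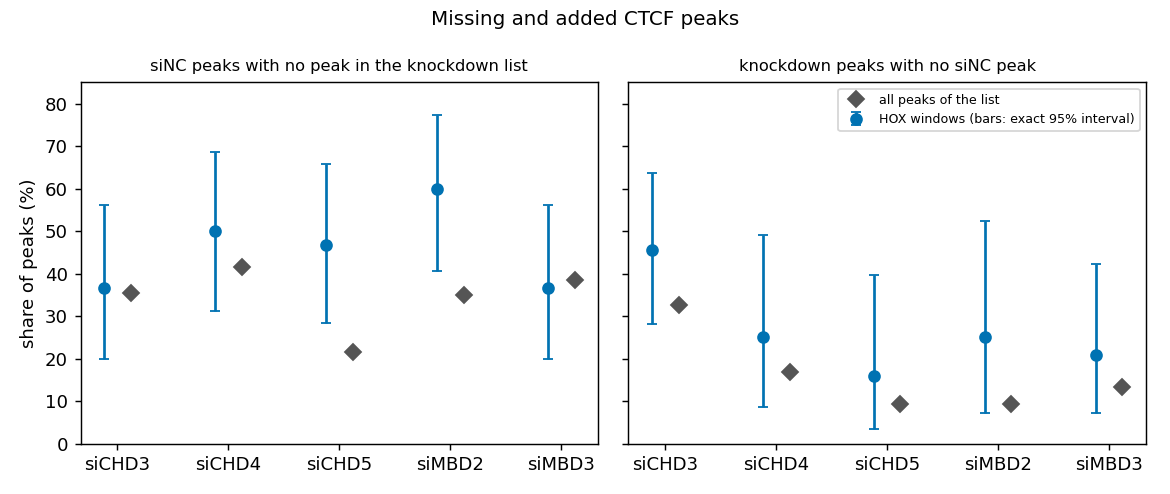
Share of siNC peaks with no peak in a knockdown list (left) and of knockdown peaks with no siNC peak (right), in percent, for the HOX windows (circles, bars are exact 95% intervals for counting error) and for all peaks of the list (diamonds). The diamond lies below the bar for the siNC peaks missing in siCHD5 and siMBD2 and within the bar in the other panels and lists.

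Of the 21 regions called in knockdown lists alone, 10 were called in siCHD3 alone, where siCHD3 alone held 43.4% of all such regions in the genome. Those 10 are 20.0% of the 50 HOX regions (interval 10.0 to 33.7), against 14.7% of all regions. Regions without a siNC peak that 2 or more knockdown lists shared numbered 6 (12.0%, 4.53 to 24.3), against 7.59% of all. They were HOXC region 1, HOXD region 10 and the 4 regions called in siCHD3 and siCHD4 alone, 1 in each cluster: HOXA region 7, HOXB region 8, HOXC region 5 and HOXD region 7. Those 4 are 8.00% of the HOX regions (2.22 to 19.2), against 3.09% of all. In each of them the siCHD3 fold, between 10.5 and 14.3, was above the siCHD4 fold, between 3.46 and 7.28.

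A further 4 regions, picked out after their values were seen, were called in siCHD3, siCHD4 and siNC but in none of siCHD5, siMBD2 and siMBD3. They were HOXA regions 3 and 12 and HOXD regions 3 and 8, again 8.00% of the HOX regions (2.22 to 19.2), against 1.66% of all. Their siNC folds were 4.52 and 4.29 in HOXA, near the HOX siNC median of 4.59, and lower in HOXD, at 2.93 and 3.28. Their siNC pileups were 20, 16, 27 and 12 fragments in the same order. Their chance of a call at the siCHD5 depth was 95.7%, 86.1%, 82.8% and 37.4%. At the siMBD2 depth it was 25.2%, 25.3%, 21.3% and 9.61%, and at the siMBD3 depth 24.1%, 13.4%, 11.7% and 5.46%. The part of depth in these absences was not tested.

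Wide peaks, here of 500 bp or longer, were found in siCHD3 and siCHD4 above all. They made up 9 of 33 HOX peaks in siCHD3 (27.3%, interval 13.3 to 45.5), against 11.2% of the whole list, and 4 of 20 in the siCHD4 list (20.0%, 5.73 to 43.7), against 6.89%. There was 1 of 19 in the siCHD5 list (5.26%, 0.133 to 26.0), against 2.18%, and 1 of 30 in the siNC list (3.33%, 0.0844 to 17.2), against 3.66%, both in HOXB region 14. siMBD2 had 0 of 16 (upper bound 20.6%), against 2.15%, and siMBD3 0 of 24 (upper bound 14.2%), against 2.60%. The whole-list share lay below the HOX interval in siCHD3 alone.

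The 9 wide siCHD3 peaks were in HOXA regions 3, 4, 7 and 8, HOXB regions 5 and 12 and HOXD regions 3, 7 and 8, and none was in HOXC. Their widths ran between 552 and 1122 bp and their folds between 5.54 and 21.6. The 4 wide siCHD4 peaks, in HOXA regions 7 and 8 and HOXD regions 3 and 7, all overlapped wide siCHD3 peaks, as did 90.0% of wide siCHD4 peaks in the genome. A siNC peak overlapped 7 of the 9 wide siCHD3 peaks, against 61.7% of wide siCHD3 peaks in the genome. HOXD region 3, picked out after the widths were seen, measured 1066 bp with siCHD3 and 793 bp with siCHD4, against 216 bp with siNC. siCHD3 also had the second lowest background of the lists and siCHD4 the third highest, and the part of depth in the widths was not tested.

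**Figure D5:**
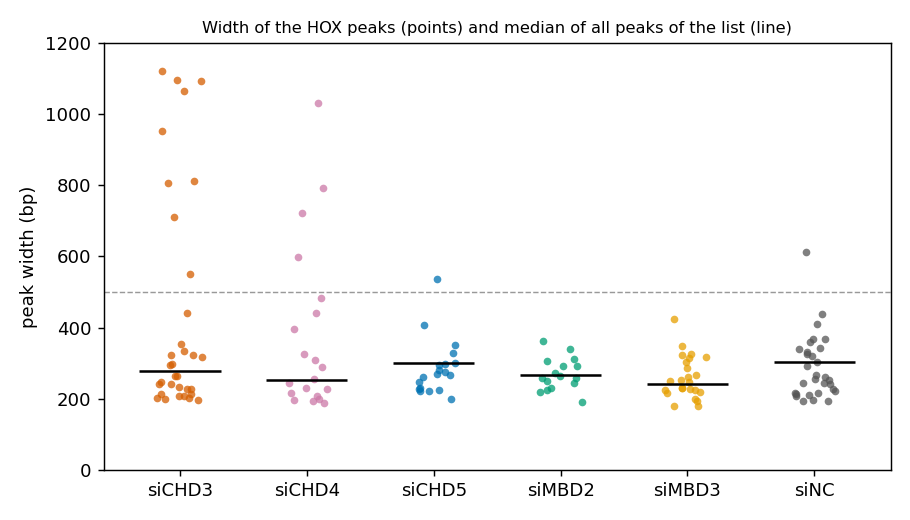
Width in bp of each HOX peak (points, spread sideways for sight) in the 6 lists, with the median width of all peaks of the list (black line) and the 500 bp limit (dashed line). Of the points above the dashed line 9 are in siCHD3, 4 in the siCHD4 list and 1 each in siCHD5 and siNC.

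Edges recurred between lists in a few other HOX regions, picked out after their positions were seen. HOXA region 8 started at 27210513 with siCHD3 and between 27210533 and 27210537 in the other 5 lists. HOXB region 5 started at 46673287 with siCHD3, 46673288 with siCHD4 and siNC and 46673289 with siMBD3. The left part of HOXB region 12 started at 46699176 with siCHD3 and 46699175 with siMBD3 and siNC, and at 46699135 with siCHD4. Over the regions called in all 6 lists, the spread of starts was 24 bp in HOXA region 8, 51 bp in HOXC region 8, 86 bp in HOXB region 10 and 94 bp in HOXB region 15.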

How the data were processed

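Peaks were the unit throughout. The submitters' processing notes name the hg19 build, the peak caller MACS2 2.1.2, the aligner Bowtie2 2.3.4, and FastQC 0.11.7, deepTools 3.5.0, SAMtools 1.9 and bedtools 2.25.0. Settings, filters and the threshold for peaks are not given in the sources used here. All 6 deposited lists have the MACS2 narrow-peak layout and pool the 3 replicates of a condition, per the peak names. The authors' fold enrichment is a ratio over local background at the summit, and the deposited −log10 p and −log10 q belong to the same summit. Across the 6 lists the authors' deposited table had a lowest −log10 q between 1.30 and 1.31. The deposited display score was left out.

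Lines with 1 start and end were counted as 1 peak with its highest summit, on chromosomes 1 to 22 and X. Peaks with 1 bp in common overlap. Positions are 1-based. The pileup at the summit and the background there were solved from fold and p as a Poisson upper tail, with p matched within 0.01% for 100% of peaks in each list. Pileups were thinned binomially in the ratio of the lowest backgrounds of the lists. This takes fragments as independent, which PCR copies are not. Intervals are exact Clopper-Pearson (95%) on numbers of peaks or regions. They cover counting error only, since neighbouring peaks of 1 pooled list are not independent and no replicate spread enters. Overlap and pileup scripts were tested on simulated data. Python 3.11.15, numpy 2.4.6, scipy 1.17.1, pandas 2.3.3 and matplotlib 3.10.9 were used.

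Regions named with values were, in each cluster, the 3 of highest siNC fold and those called in all 6 lists. Named as well were those in siNC and no knockdown list, those without a siNC peak in 2 or more knockdown lists, and the strongest missing and added peak of each knockdown, by fold. HOXA regions 3, 4 and 12, HOXB regions 5 and 14 and HOXD regions 3 and 8 were named after their values were seen. The members, lists and rules were chosen with earlier results of these data known. Alternatives were other overlap rules, thresholds on q, lists of equal length, other window bounds, merging within 500 bp and a minimum chance of a call. Leaving out wide peaks or the siCHD3 list was added after the data were seen.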

Additional observations from a re-analysis of the deposited data

How the results depend on the processing

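Of 55 alternative counts of missing HOX siNC peaks, 38 stayed within 1.5 times the reported count, as did 34 of 50 for added HOX peaks and 10 of 14 for regions. For the lists that call each named region 67 of 80 did. These tallies compare counts, not shares, while the number of peaks changes between settings. In lists of equal length siCHD3 kept 15 added HOX peaks, but of 23 rather than of 33. In the values below, siCHD3, siCHD4, siCHD5, siMBD2 and siMBD3 keep this order where all 5 are given. Reciprocal overlap of 50% gave 20 missing and 23 added in siCHD3. A peak shorter than 50% of its partner fails that rule by construction, as did the pairs with the 7 wide siCHD3 peaks that overlap siNC peaks. With −log10 q held to at least 10 on the list whose peaks were looked up, and not on the other, there were 7, 8, 6, 9 and 4 missing, of 19 siNC peaks, and 5, 1, 1, 1 and 1 added. With the limit on both lists, −log10 q of 5 or more gave 8 added in siCHD3, 2 in siMBD2 and 3 in siMBD3. At 10 it gave 6 added in siCHD3, 2 in siCHD4, 1 in siMBD2 and 2 in siMBD3, and 9 missing in siMBD2. Lists of equal length (25358 peaks of smallest p) gave 4, 3, 5, 3 and 2 missing, of 13 siNC peaks, and 10 added in siCHD4 and 12 in siMBD3. These settings leave fewer siNC peaks by construction. Where both lists are cut, a knockdown peak that loses its siNC partner counts as added. A chance of a call of at least 95% left 2 missing in siCHD3, 3 in siCHD4, 1 in siMBD2 and 0 in siMBD3. Without peaks of 500 bp or longer, 19 of 29 were missing in siCHD3 and 3 of 16 added in siCHD4. By construction, siNC peaks whose siCHD3 partner was wide then count as missing, and wide added siCHD4 peaks drop out. Windows widened by 50 kb held 9 regions called in all 6 lists, of 56. The share over all regions does not change with the windows and stays 21.7%. Regions in siNC and no knockdown list numbered 5 of 36 at −log10 q of 5, 6 of 28 at 10 and 1 of 39 with lists of equal length. A limit on q can remove the knockdown partner of a siNC peak by construction. Where no share over all peaks or regions is given for a setting, the HOX count has no comparison. Where no construction is named, the cause was not tested. No paired analysis was possible because the lists pool the replicates, and for the same reason no replicate could be left out. The lowest background of siNC was 7.92 times that of siMBD3, and the part of depth was not tested.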
